A study of Mus musculus with 17 samples.

Results

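Wnt and Yap pathway genes were examined for the histone variant H3.3 in the newborn mouse lens. The 10 genes were taken by name, with no threshold on a measured value though with earlier results of these data known, out of 21938 protein-coding genes that were measured in the same way. They were the Wnt ligands Wnt7a and Wnt7b, the Frizzled receptors Fzd3 and Fzd6, the co-receptor Lrp6, the secreted inhibitor Sfrp1, β-catenin (Ctnnb1), the pathway inhibitor and target Axin2, and, from the Hippo pathway, the effector Yap1 and the tumour suppressor Nf2. For each gene, a window of the gene body (GENCODE vM21, mm10) with 5 kb on each side was laid over the deposited H3.3 islands, and the base pairs under islands were counted in each library. An island is a broad region in which the number of ChIP-seq reads exceeds what the caller SICER2 expects.

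The 4 H3.3 libraries came from CD1 mice with no other genotype or treatment. Lenses of newborn animals, called P1 in the sample titles and P0.5 in the protocol, were microdissected into the epithelium, a sheet of dividing cells, and the fibers, elongated cells that have left the cell cycle. There were 2 libraries from each compartment, described as biological replicates, and each was a pool of 150 lenses. With 2 libraries against 2, the exact two-sided permutation test over its 6 splits cannot give a p below 0.33, so values are given for every library and set against the spread between replicates, which here measures only these libraries. Dissected tissue also means that a smaller share of cells carrying H3.3 at a gene and less H3.3 in each cell cannot be told apart.

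Wnt ligands are secreted proteins that bind a Frizzled receptor and the co-receptor Lrp5 or Lrp6 at the cell surface. In the canonical branch, binding halts the complex of Axin, Apc and the kinases that would otherwise mark β-catenin for destruction, and β-catenin then joins TCF/LEF factors on target genes such as Axin2. Another branch, planar cell polarity, runs through Frizzled without β-catenin and orients cells within a tissue. In the Hippo pathway, Nf2 and the Lats kinases keep Yap1 out of the nucleus, where it would act with TEAD factors to promote growth. In the lens, Wnt signalling is known for its role in the epithelium and in the orientation of fiber cells, and Nf2 and Yap1 for theirs in cell cycle exit and in maintenance of the progenitor pool. H3.3 is deposited outside of DNA replication and is found along transcribed genes and at regulatory regions.

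The fiber libraries held more H3.3 islands than the epithelium libraries across the whole genome, which bears on every gene below. The epithelium libraries had 10389 and 14434 islands, which spanned 45.4 and 48.9 Mb. Those of fibers had 27059 and 35940, which spanned 178 and 188 Mb, so the mean covered length was 3.88 times as large in fibers. The median density of reads within islands was alike in all libraries, between 27.4 and 28.3 reads per kb. Sequencing depth is not known, and reads outside islands are not in the lists used here. Coverage was also read at markers of cell types. All 6 fiber markers (Mip, Bfsp1, Bfsp2, Lim2, Crygs, Crybb1) had more island sequence in both fiber libraries than in either epithelium library. Their windows were covered over 94.3% and 94.2% in fibers against 20.0% and 26.3% in epithelium. The same rule held for 45% of all protein-coding genes, for 3 of the 4 epithelium markers and for both endothelial genes named below. With more sequence covered in fibers in total, that count cannot check the dissection. The 4 epithelium markers (Foxe3, Cdh1, Pax6, Gja1) did not mark the epithelium libraries by this measure: 27.2% and 36.9% of their windows were covered in epithelium and 48.5% and 54.6% in fibers, and Foxe3 had no island in epithelium replicate 1. Of markers of other cells, Tyr (pigment cells), Ptprc (blood) and Crx (photoreceptors) had no island in any library, while the endothelial pair Pecam1 and Cdh5 had 2.89% and 3.64% of their windows covered in epithelium and 11.2% and 8.29% in fibers. The part of other cell types in the results was not tested.

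H3.3 islands lay at all 10 genes in fibers and at fewer of them in epithelium. Epithelium replicate 1 had islands at 5 of the 10 genes and epithelium replicate 2 at 7, while each fiber library had islands at all 10. Over all protein-coding genes, an island lay in the window at 30.4% and 35.4% of genes in the epithelium libraries and at 54.5% and 60.7% in the fiber libraries. Each library thus held islands at a higher share of the 10 genes than of all genes. Window length was not matched in this comparison. The windows of the 10 genes run from 40.4 to 130 kb, and a longer window has more room to meet an island. The 10 windows span 673 kb, of which islands covered 61.3 and 95.1 kb in the epithelium libraries (9.10% and 14.1%) and 294 and 273 kb in the fiber libraries (43.7% and 40.6%). The mean covered length over the 10 genes was 3.63 times as large in fibers, close to the 3.88 times of the whole libraries. The median gene of all was covered over 0% of its window in both epithelium libraries and over 4.83% and 8.23% in the fiber libraries.

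At 9 of the 10 genes the covered length was higher in both fiber libraries than in both epithelium libraries, and at none was it higher in both epithelium libraries. Over all protein-coding genes, 45% met the first rule and 0.67% the second. Those shares count 7791 genes that had no island in any library and could meet neither rule. The exception was Axin2, at which the libraries overlapped between compartments (exact permutation p = 0.67). For each of the other 9 genes the exact permutation p was 0.33, the smallest that this design allows. Lrp6 and Yap1 had islands in both fiber libraries and in neither epithelium library, as 15.2% of all protein-coding genes did. Wnt7b, Ctnnb1, Axin2 and Nf2 had an island in both epithelium libraries, and Wnt7a, Fzd3, Fzd6 and Sfrp1 in 1 epithelium library.

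**Figure D1:**
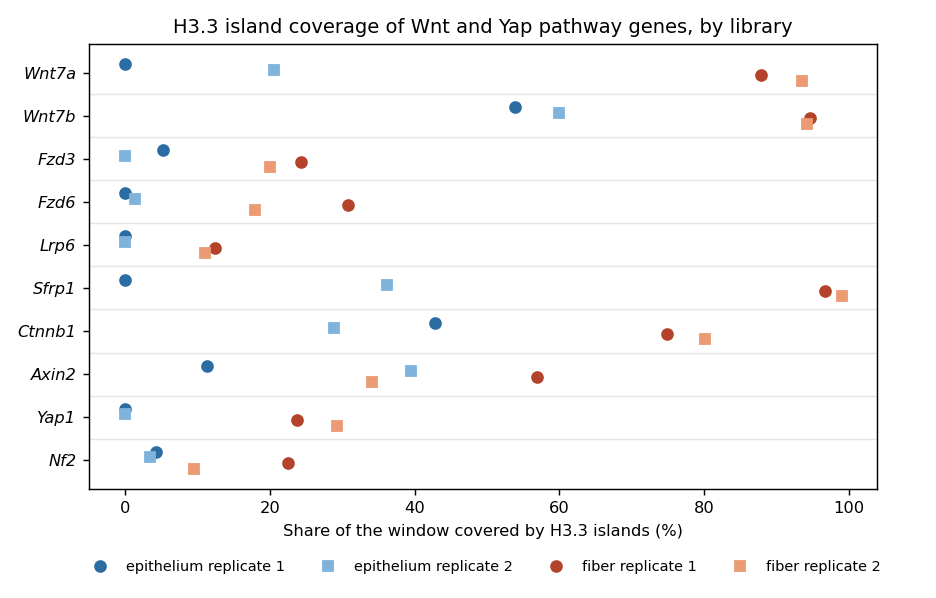
Share of the window of each gene covered by H3.3 islands (percent, x axis) in each of the 4 libraries (points, blue for epithelium and red for fiber). The fiber points of Wnt7a, Wnt7b and Sfrp1 sit between 87.9% and 99.0%, and Axin2 is the gene at which blue and red points overlap.

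The genes differed from each other in H3.3 at their starts, while their count in fibers was near the share of all protein-coding genes. Islands covered at least part of the 2 kb around the annotated start in both fiber libraries at Wnt7a, Wnt7b, Sfrp1 and Nf2, which is 4 of the 10 genes against 35.1% of all protein-coding genes, and in both epithelium libraries at 0 of the 10 against 9.45%. At Lrp6, Axin2 and Yap1 the start was covered in part in 1 fiber library, and at Fzd3, Fzd6 and Ctnnb1 in no library. Epithelium replicate 2 had an island at the start of 4 genes (Wnt7a, Wnt7b, Sfrp1 and Axin2), covering 11.9%, 100%, 25.1% and 22.6% of the 2 kb, while epithelium replicate 1 had none. The start of Ctnnb1 needs care. The GENCODE gene begins upstream of the RefSeq starts, whose promoters lay under an island in fiber replicate 2 and in no other library.

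RefSeq promoter sequences (GRCm38.p6, the assembly of mm10) were at hand for Wnt7a, Ctnnb1, Axin2, Yap1 and Nf2, and not for Wnt7b, Fzd3, Fzd6, Lrp6 and Sfrp1. The 250 bases before the start of each of these 5 genes are shown, 5′ to 3′ on the strand of the gene, since they separate the genes by library: those of Wnt7a and of Nf2 lay wholly under islands in both fiber libraries, those of Yap1 and Ctnnb1 in fiber replicate 2 alone, that of Axin2 in fiber replicate 1 alone, and none in epithelium. Capitals mark the letters GGAATG, the core that TEAD factors bind. The windows are Wnt7a at chr6:91411354-91411603 (minus strand), Nf2 at chr11:4849545-4849794 (minus strand), Yap1 at chr9:8004597-8004846 (minus strand), Ctnnb1 at chr9:120933150-120933399 (plus strand, the first of its 2 RefSeq starts) and Axin2 at chr11:108920099-108920348 (plus strand).
Wnt7a: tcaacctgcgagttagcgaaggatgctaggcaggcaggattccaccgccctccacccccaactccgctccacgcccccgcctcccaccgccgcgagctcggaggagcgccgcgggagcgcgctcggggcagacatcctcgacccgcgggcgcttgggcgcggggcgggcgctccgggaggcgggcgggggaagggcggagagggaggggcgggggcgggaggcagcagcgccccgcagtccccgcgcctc
Nf2: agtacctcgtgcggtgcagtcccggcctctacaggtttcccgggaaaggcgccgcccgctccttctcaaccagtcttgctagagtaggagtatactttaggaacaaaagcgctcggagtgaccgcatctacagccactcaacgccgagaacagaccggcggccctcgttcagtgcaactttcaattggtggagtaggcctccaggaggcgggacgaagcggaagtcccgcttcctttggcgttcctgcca
Yap1: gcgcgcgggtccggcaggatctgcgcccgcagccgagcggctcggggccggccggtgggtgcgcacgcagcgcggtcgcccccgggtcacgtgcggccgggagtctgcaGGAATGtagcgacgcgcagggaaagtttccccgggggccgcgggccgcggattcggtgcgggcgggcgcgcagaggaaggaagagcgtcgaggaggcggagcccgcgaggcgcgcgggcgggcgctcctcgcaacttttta
Ctnnb1: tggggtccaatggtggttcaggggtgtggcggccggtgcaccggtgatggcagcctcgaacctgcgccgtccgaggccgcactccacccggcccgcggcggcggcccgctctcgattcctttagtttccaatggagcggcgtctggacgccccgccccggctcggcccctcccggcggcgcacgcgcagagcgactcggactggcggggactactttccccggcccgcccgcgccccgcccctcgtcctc
Axin2: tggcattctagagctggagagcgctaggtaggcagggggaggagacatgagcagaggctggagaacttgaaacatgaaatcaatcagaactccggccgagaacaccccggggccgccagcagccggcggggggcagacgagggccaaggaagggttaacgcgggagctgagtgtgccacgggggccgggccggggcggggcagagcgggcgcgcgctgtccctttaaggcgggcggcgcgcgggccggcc

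Each promoter window of 300 bases, from 250 before the start to 50 after it, was searched on both strands for CTTTGA and CTTTGT, the core letters of TCF/LEF sites, and for GGAATG. The TCF/LEF cores differ in their last letter and cannot match at the same place, and GGAATG resembles neither. GGAATG occurred in the Yap1 window, at bases -141 to -136 from the start, and in none of the other 4 windows shown, and neither TCF/LEF core occurred in any of the 5. Of 32851 mouse promoter windows of the same length, 14.7% held GGAATG and 31.2% held CTTTGA or CTTTGT. The RefSeq window at an internal start of Nf2 (chr11:4833136-4833385 before the start), which no island touched, held CTTTGA at -138 to -133 and again at 28 to 33. The windows of Wnt7a, Yap1, Ctnnb1, Axin2 and Nf2 were rich in G and C, at 76%, 74%, 75.3%, 70% and 56.3%, and held 42, 49, 46, 31 and 22 CpGs, against medians of 52.7% and 7 CpGs over all windows.

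Among the ligands, Wnt7a showed the largest difference of the 10 genes. Wnt7a (ENSMUSG00000030093.7, chr6:91363981-91411363, minus strand) encodes a ligand that acts through both branches of Wnt signalling. Islands covered 0% of its window in epithelium replicate 1 and 20.6% in replicate 2, against 87.9% in fiber replicate 1 and 93.4% in replicate 2. Both fiber libraries were far above both epithelium libraries, by 80.4 percentage points in the mean (a covered length of 52.0 ± 2.26 kb against 5.90 ± 8.34 kb, SD, n = 2 each), and the epithelium spread comes from 1 library having no island. In fibers the islands began upstream of the start, at -3.84 and -3.24 kb, and ran through the gene, in 3 islands per library of up to 39 kb. In epithelium replicate 2 the 4 islands were short, from 1.8 to 5.4 kb, and lay over 77.1% of the exon sequence but 18.9% of the intron sequence, whereas fiber islands lay over 99.4% and 100% of exons and 88.7% and 95.5% of introns.

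Wnt7b differed from Wnt7a in being widely covered in epithelium too. Wnt7b (ENSMUSG00000022382.15, chr15:85535437-85582473, minus strand) encodes a close relative of Wnt7a. Islands covered 53.9% and 59.9% of its window in the epithelium libraries and 94.6% and 94.3% in the fiber libraries. The groups did not overlap, and the fiber replicates were almost the same (94.4% ± 0.248 against 56.9% ± 4.22, SD, n = 2 each), with a difference of 37.5 points. What also changed was the shape: fiber replicate 2 had 1 island of 57.8 kb across the gene, longer than 99.9% of the islands of that library, and fiber replicate 1 had 2, while epithelium replicates 1 and 2 had 6 and 9 islands of at most 8.0 and 8.4 kb. In epithelium replicate 1 the first 13.9 kb of the gene held no island, and in epithelium replicate 2 the start was covered. An antisense gene, AU022754, shares 12.7% of the Wnt7b window at its start, and the islands cannot assign H3.3 to either strand.

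The receptors Fzd3 and Fzd6, which serve in planar cell polarity, were covered in patches. Fzd3 (ENSMUSG00000007989.7, chr14:65192449-65262463, minus strand) had 5.25% and 0% of its window covered in epithelium and 24.3% and 20.1% in fibers. Fzd6 (ENSMUSG00000022297.15, chr15:39006034-39038188, plus strand) had 0% and 1.42% covered in epithelium and 30.8% and 18.0% in fibers. Neither gene's libraries overlapped between compartments, with mean differences of 19.6 and 23.7 points. Fzd3 islands in fibers fell at the same places in both replicates: upstream of the start, between about 10.7 and 22.3 kb into the gene, and near 52.3 to 60.9 kb. The 1 island of Fzd3 in epithelium, at 55.9 to 60.1 kb, lay at the last of these. The gene Fbxo16, on the opposite strand, starts within the upstream islands of both fiber libraries, and H3.3 there cannot be assigned to one of the genes. For Fzd6 the fiber islands began 1.57 and 2.17 kb after the start, and fiber replicate 1 had another at 16.2 to 19.4 kb. In fiber replicate 1 an island at 31.8 to 40.8 kb spanned the end of the gene. In fiber replicate 2 an island at 34.6 to 38.6 kb lay wholly beyond it. Islands covered 100% and 51.8% of the 5 kb after the end in these libraries. The 1 epithelium island of Fzd6, of 0.6 kb and 32 reads, lay in those same 5 kb and outside the gene body, so the body of Fzd6 had no island in epithelium. The noncoding gene Gm49786 also lies in those 5 kb, and H3.3 there cannot be assigned to one of the genes.

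Lrp6, the co-receptor that passes the Wnt signal to the cytoplasm, was the least covered of the 10 genes in fibers by the mean share. Lrp6 (ENSMUSG00000030201.15, chr6:134446476-134566965, minus strand) had 0% of its window covered in both epithelium libraries, and 12.4% and 11.0% in the fiber libraries. The groups did not overlap, at 11.7% ± 0.975 (SD, n = 2) in fibers. Islands numbered 3 and 5, of at most 6.8 kb, and those of both libraries met at 35.8 to 41.6 kb and at 95.2 to 96.8 kb into the gene. A start island of 1.4 kb was called in fiber replicate 2 and not in fiber replicate 1.

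Sfrp1, a secreted protein that binds Wnt ligands and keeps them from their receptors, was the most fully covered gene of the set in fibers. Sfrp1 (ENSMUSG00000031548.7, chr8:23411502-23449632, plus strand) had 0% and 36.2% of its window covered in epithelium and 96.7% and 99.0% in fibers. Both fiber libraries lay above both epithelium libraries, with a difference of 79.7 points (97.8% ± 1.62 against 18.1% ± 25.6, SD, n = 2 each). In fiber replicate 2 an island of 48.6 kb began at -4.50 kb and covered the whole gene body, and in fiber replicate 1 the gene lay under 3 islands, the longest of 38 kb. Epithelium replicate 2 had 5 islands of 3.0 to 4.0 kb each, and epithelium replicate 1 had none, so the level in epithelium rests on 1 library, as for Wnt7a.

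Ctnnb1 encodes β-catenin, which carries the canonical signal to the nucleus and also joins cadherins at cell junctions. Ctnnb1 (ENSMUSG00000006932.17, chr9:120929216-120960507, plus strand) had 42.9% and 28.8% of its window covered in epithelium and 74.8% and 80.2% in fibers. The libraries did not overlap between compartments, and the difference was 41.7 points (77.5% ± 3.77 against 35.9% ± 9.93, SD, n = 2 each). Coverage leaned towards the end of the gene: the 5 kb after the end were covered over 100% in all 4 libraries, and the 5 kb before the start over 0% in all 4. In epithelium the first island began 12.0 and 21.6 kb into the gene, and in fibers 5.39 and 1.19 kb into it. The end of Ctnnb1 meets Ulk4 on the opposite strand, which shares 24.6% of the window, and H3.3 there cannot be assigned to one of the genes.

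Axin2 was the gene of the set that did not separate the compartments. Axin2 (ENSMUSG00000000142.15, chr11:108920349-108950783, plus strand) encodes a scaffold of the β-catenin destruction complex and is a widely used readout of canonical Wnt signalling. Islands covered 11.4% of its window in epithelium replicate 1 and 39.6% in replicate 2, against 56.9% in fiber replicate 1 and 34.1% in replicate 2. Epithelium replicate 2 was above fiber replicate 2, and the mean difference of 8.10 kb was of the size of the spread between replicates (18.4 ± 6.51 kb against 10.3 ± 8.06 kb, SD, n = 2 each). Without epithelium replicate 2, or without fiber replicate 2, fibers were higher, by 13.8 and 12.7 kb. Without epithelium replicate 1 or fiber replicate 1 the libraries overlapped, with differences of 2.40 and 3.50 kb. Around the start, islands covered 0% and 22.6% of the 2 kb in epithelium and 100% and 0% in fibers, and upstream of the start islands ended short of it in epithelium replicate 2 and fiber replicate 2. The promoter printed above lay under an island in fiber replicate 1 alone.

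The Hippo genes were covered in short, sparse islands. Yap1 (ENSMUSG00000053110.13, chr9:7931999-8004596, minus strand), the coactivator through which the pathway acts on growth genes, had 0% of its window covered in both epithelium libraries and 23.7% and 29.3% in fibers. The groups did not overlap, at 26.5% ± 3.94 (SD, n = 2) in fibers. Its islands numbered 4 and 6, none over 7.2 kb, and both libraries had them at about 11.6 to 17.2 kb, 42.6 to 45.6 kb and 73.2 to 75.8 kb from the start. The last of these places lies beyond the end of the gene. Fiber replicate 2 had an island of 2.2 kb that ran from -0.604 to 1.60 kb around the start, over the promoter shown with GGAATG in capitals. Fiber replicate 1 had none within 1 kb of the start. The noncoding gene Gm45494, on the opposite strand, starts within that island, and H3.3 there cannot be assigned to one of the genes. Another noncoding gene, Gm20416, shares 13.5% of the Yap1 window.

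Nf2 (ENSMUSG00000009073.16, chr11:4765845-4849536, minus strand) encodes merlin, a protein of the cell cortex that activates the Hippo kinases. Islands covered 4.27% and 3.42% of its window in epithelium and 22.6% and 9.61% in fibers. Fibers were higher in both libraries, by 12.3 points in the mean, with a wide spread between the fiber replicates (16.1% ± 9.17, SD, n = 2). The difference in covered length was 11.5 kb, and 5.40 kb without fiber replicate 1 or 17.6 kb without fiber replicate 2. Both fiber libraries had an island at the start, covering 86.8% and 100% of the 2 kb around it, and an island about 30.3 to 33.1 kb into the gene. The epithelium island of replicate 1 lay at 50.1 to 54.1 kb in an intron, away from the fiber islands. That of replicate 2 lay beyond the end of the gene, within an island of fiber replicate 1 at 83.1 to 89.3 kb. Of the 7.2 kb covered in an epithelium library, 4.0 kb lay outside the islands of both fiber libraries.

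**Figure D2:**
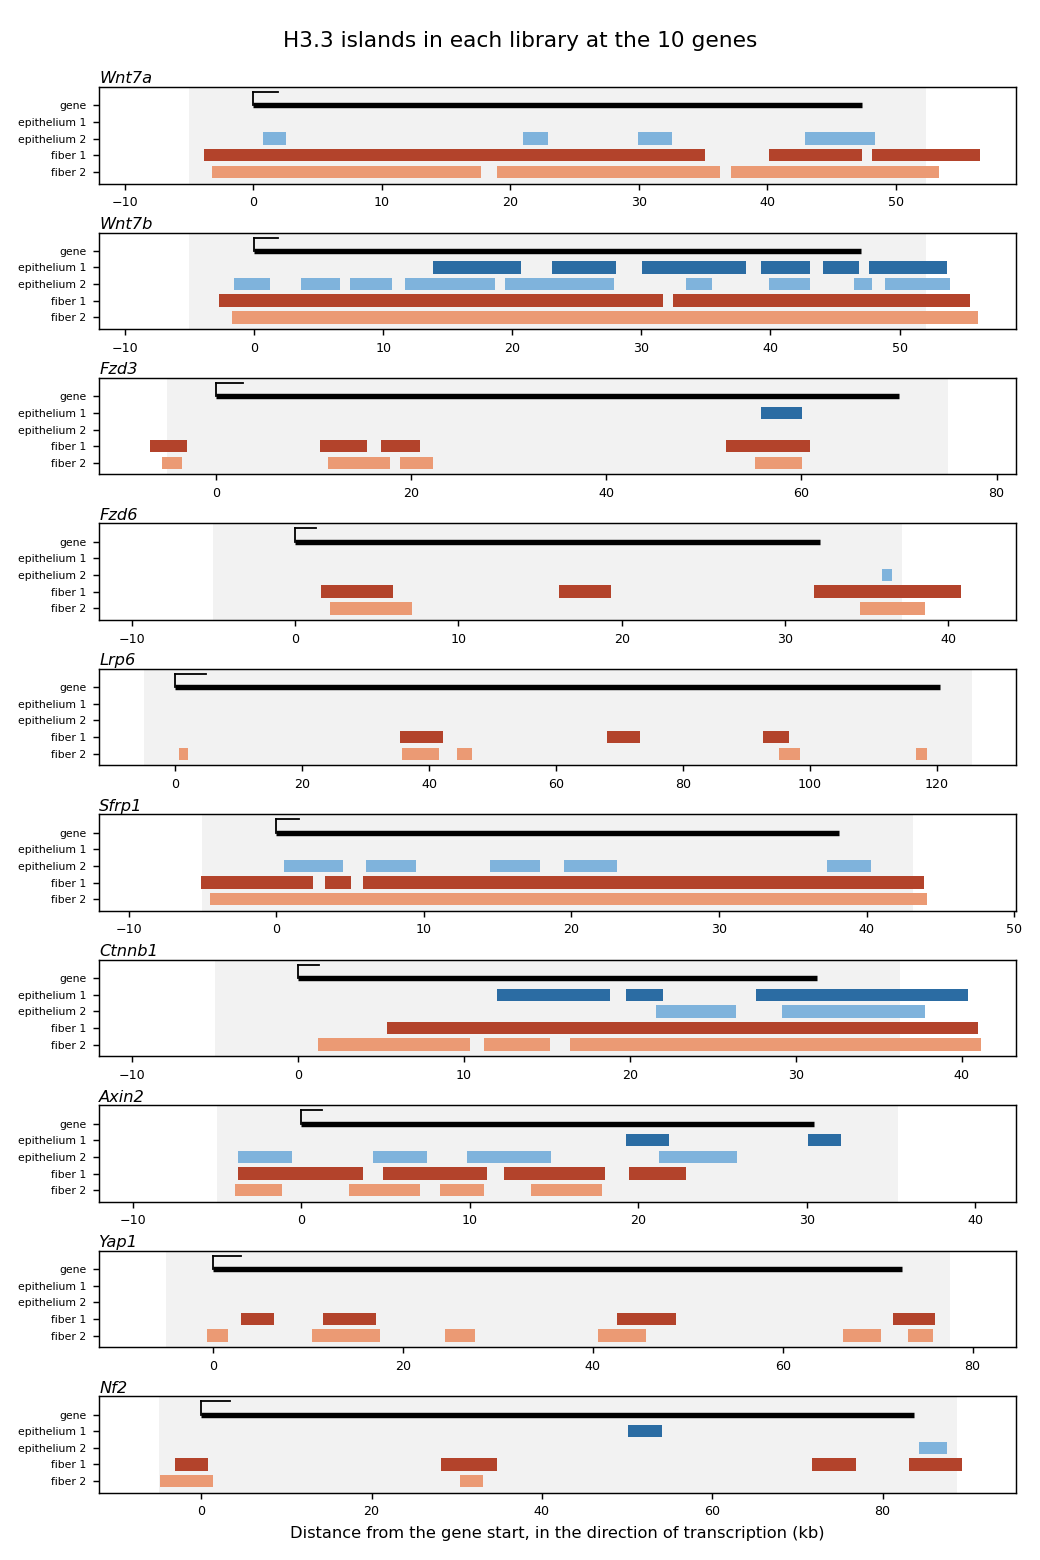
Position of each H3.3 island at each gene, in kb from the annotated gene start in the direction of transcription (x axis), with 1 row per library under the gene (black bar, arrow at the start; grey, the window of the gene and 5 kb on each side). At Wnt7a, Wnt7b and Sfrp1 the fiber islands run across the gene, in up to 57.8 kb, while at Lrp6, Yap1 and Nf2 they are short and scattered.

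How well the replicates placed their islands differed between genes. The share of base pairs covered in either fiber library that both covered was 96.7% at Wnt7b, 95.6% at Sfrp1, 87.7% at Wnt7a and 82.3% at Ctnnb1, then 59.6% at Fzd3, 50.8% at Axin2, 45.0% at Fzd6, 34.4% at Yap1, 31.9% at Lrp6 and 28.0% at Nf2. The widely covered genes head that order, and a wide cover leaves little room for islands to miss each other. In epithelium the share was 43.8% at Wnt7b, 34.0% at Ctnnb1 and 3% at Axin2, and no base pair was covered by both libraries at the other genes. Every base pair covered in epithelium at Wnt7a, Wnt7b, Fzd3, Fzd6, Sfrp1 and Ctnnb1 was covered in a fiber library as well. At Axin2 that held for 69% of 20.0 kb, and at Nf2 for 44.4% of 7.2 kb.

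Reads per kb of island set Wnt7b apart. The number of reads in an island depends on the depth of the library and was not normalized, so each density was ranked among all islands of its own library. Wnt7b islands held 29.8 and 29.9 reads per kb in epithelium, both near the 66th percentile (65.6 and 65.9), and 42.4 and 40.7 in fibers, at percentiles 99.1 and 97.9. Sfrp1 followed in fibers with 33.8 and 34.1 reads per kb (percentiles 89.2 and 88.0), then Ctnnb1 with 32.3 and 33.2 (84.2 and 84.7) and Wnt7a with 32.7 and 31.2 (85.7 and 75.6). These 4 genes, the widest covered, were above the library median in both fiber libraries. The fiber islands of Fzd3, Lrp6, Axin2, Yap1 and Nf2 were below it in both libraries, Axin2 narrowly so at 26.8 and 27.5 reads per kb (percentiles 44.2 and 49.0). Fzd3 stood at 25.9 and 27.3 and Lrp6 at 25.4 and 27.2. The lowest fiber value was that of Yap1 in replicate 1, at 24.1 with 25.8 in replicate 2, and that of Nf2 in replicate 2, at 22.0 with 24.3 in replicate 1 (percentiles 7.44 and 20.5). Fzd6 was on either side of the median, at 25.8 and 29.1. In epithelium, Ctnnb1 islands held 29.8 and 31.9 reads per kb and those of Axin2 32.6 and 26.7, and the 53.3 reads per kb of the short Fzd6 island in epithelium rest on 32 reads.

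**Figure D3:**
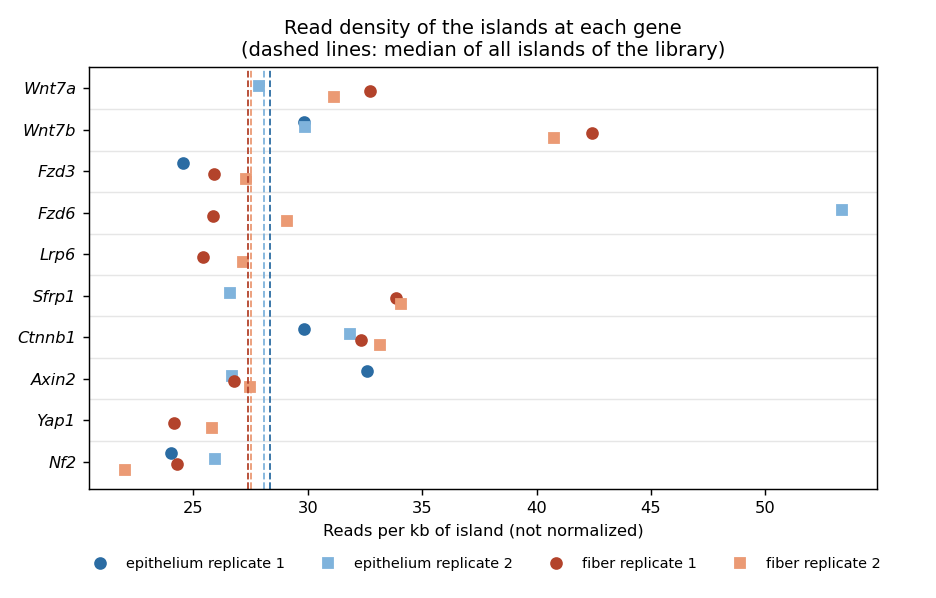
Reads per kb in the islands of each gene (x axis, not normalized) in each library, with dashed lines at the median of all islands of that library. The fiber points of Wnt7b, at 42.4 and 40.7, stand to the right of all other fiber points, and those of Yap1, at 24.1 and 25.8, and Nf2, at 24.3 and 22.0, are at the left.

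Because the fiber libraries had more islands in total, the covered length was also expressed as base pairs per Mb of all islands of the library. On that scale 4 genes were higher in both fiber libraries (Wnt7a, Fzd6, Lrp6 and Yap1), 2 were higher in both epithelium libraries (Wnt7b and Ctnnb1), and 4 overlapped. Over all protein-coding genes, 21.6% were higher in fibers and 14.6% in epithelium by the same rule. Wnt7b took 678 and 699 bp per Mb of islands in epithelium and 303 and 286 in fibers. Ctnnb1 took 390 and 244 in epithelium and 174 and 176 in fibers. A ceiling set this outcome: with the whole window under islands, Wnt7b could reach 321 and 304 bp per Mb in fiber replicates 1 and 2, and Ctnnb1 232 and 220, still below both of their epithelium values. Nor could Sfrp1 or Axin2 exceed their higher epithelium value in both fiber libraries, so for these 4 genes the scale cannot show a higher share in fibers. For Wnt7a the values were 0 and 242 in epithelium and 284 and 286 in fibers, the same order as before. Sfrp1, at 0 and 356 in epithelium and 262 and 254 in fibers, overlapped.

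**Figure D4:**
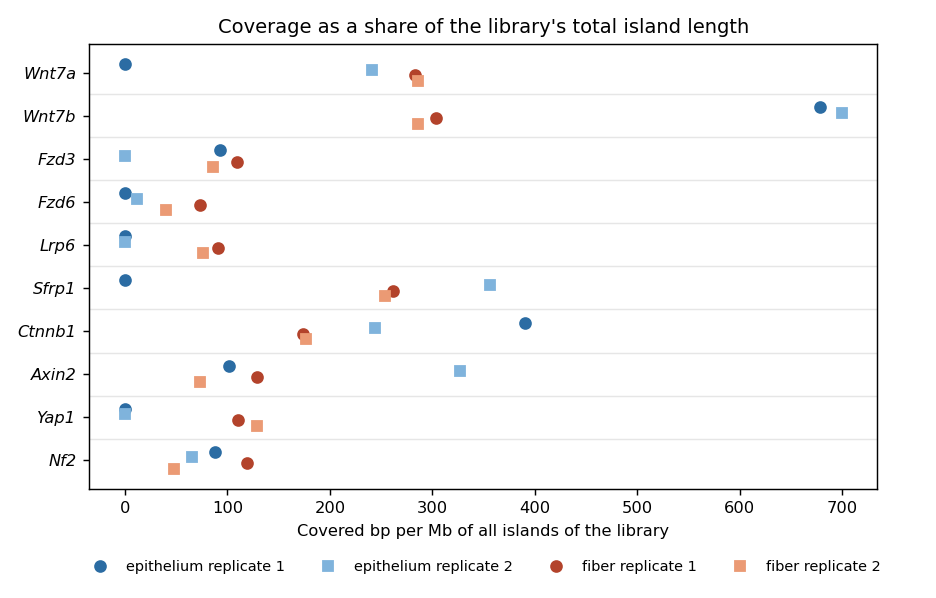
Covered base pairs of each gene per Mb of all islands of the library (x axis) in the 4 libraries. Wnt7b in epithelium, at 678 and 699, lies above every other point, and the fiber points of Wnt7b and Ctnnb1 lie below their epithelium points.

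The libraries were also brought to the same number of islands, the 10389 with the most reads per kb in each. Wnt7a, Wnt7b, Sfrp1 and Ctnnb1 were then higher in both fiber libraries, by 36.9, 23.0, 38.4 and 12.6 kb in the mean, and the other 6 genes overlapped. Over all protein-coding genes, 15.6% were higher in fibers under that rule. The differences at Fzd3, Axin2 and Nf2 turned to -1.37, -5.6 and -2.0 kb, and those at Fzd6, Lrp6 and Yap1 shrank to 0.994, 1.5 and 3.6 kb.

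Ranking each gene by its covered share among all protein-coding genes of its library gave a further reading. By percentile, Wnt7a, Lrp6, Sfrp1 and Yap1 were higher in both fiber libraries, Nf2 was higher in both epithelium libraries (73.2 and 68.8 against 66.3 and 51.8), and the other 5 overlapped. Over all protein-coding genes 22.1% were higher in fibers and 48.1% in epithelium, and 73.9% of the latter had no island in any library and differ only in how ties at 0 are ranked. Wnt7b was among the top genes in every library, at percentiles 96.8, 98.0, 97.9 and 98.5. Axin2 ranked at 79.6 and 93.9 in epithelium and at 85.0 and 74.7 in fibers.

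The rest of both pathways was described from a list of 120 other genes, 90 of the Wnt and 30 of the Hippo pathway, sorted by role. Of the 120, 78 (65%) had a higher covered length in both fiber libraries, 1 in both epithelium libraries, and 41 overlapped, of which 15 had no island in any library. The same rule held for 45% and 0.67% of all protein-coding genes. Of those 21938 genes, 7791 had no island in any library and could not meet the rule, as with the 15 of the list. The list and all genes are therefore not alike in how many could meet it. The median difference in covered share, which includes genes without an island, was 16.5 points over the list and 4.72 over all genes. As a share of the library's islands, 34 of the 120 were higher in fibers and 32 in epithelium. Over all protein-coding genes, 21.6% and 14.6% were, which again counts the 7791 genes without an island. Of the 32, 18 would be higher in epithelium even with the whole window covered in fibers, as would 1575 of the 3194 among all genes.

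By role, the share of listed Wnt genes that were higher in fibers ranged from none to nearly all. Fibers were higher at 13 of 15 cytoplasmic transducers, with the kinase Csnk1a1 at 11.6% and 9.96% in epithelium and 67.6% and 68.9% in fibers, and at 11 of 13 nuclear factors, with the β-catenin cofactor Pygo2 at 37.5% and 41.6% against 100% and 93.3%. They were higher at 7 of 17 other ligands, 5 of 11 other secreted inhibitors and 4 of 9 genes of the R-spondin axis, and at 0 of 3 genes of ligand processing and secretion. As a share of the library's islands, 21.6% of all protein-coding genes were higher in fibers and 14.6% in epithelium. On that scale the transducers had 6 higher in fibers and 6 in epithelium, and the nuclear factors 4 and 5 with Pygo2 higher in epithelium. The ligands had 3 and 5, the secreted inhibitors 2 and 2, and the R-spondin axis 3 and 0. The difference between roles was not tested. In these groups the ligand Wnt5b, which signals without β-catenin, was at 8.70% and 17.9% in epithelium and 91.0% and 86.5% in fibers. Sfrp2, a relative of Sfrp1, was at 0% in both epithelium libraries and at 43.3% and 52.2% in fibers. Rspo1, a secreted protein that stabilises Frizzled receptors, was at 19.6% and 9.18% against 84.1% and 85.0%.

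Among receptors and co-receptors, fibers were higher at 8 of 12, with Fzd7 at 0% and 31.7% in epithelium and 48.2% and 78.1% in fibers. Among planar cell polarity genes they were higher at 6 of 7, with Prickle1, a cytoplasmic polarity protein, at 10.3% and 4.31% against 69.6% and 74.0%. Of 3 other Wnt targets 2 were higher in fibers, and Myc was at 0% in both epithelium libraries and 58.7% and 34.7% in fibers. The 1 gene higher in epithelium was Tle2, a Groucho corepressor that binds TCF/LEF factors, at 39.0% and 42.0% in epithelium and 31.5% and 37.4% in fibers, a difference of -6.00 points. As a share of the library's islands, receptors had 3 genes higher in fibers and 3 in epithelium, and planar cell polarity genes 3 and 2. The shares over all protein-coding genes were 21.6% and 14.6%.

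In the Hippo pathway, fibers were higher at 9 of 11 other upstream regulators, 5 of 9 core kinases and adaptors, 6 of 6 other effectors and 2 of 4 targets. As a share of the library's islands, 21.6% of all protein-coding genes were higher in fibers and 14.6% in epithelium. The Hippo genes higher in fibers and in epithelium were 4 and 3, 3 and 0, 2 and 2, and 0 and 2 in the same order of roles. Ajuba was among the targets higher in epithelium. Fat1, an atypical cadherin, was at 0% and 8.67% in epithelium and 56.8% and 64.5% in fibers. Map4k4, a kinase that acts on Lats, was at 6.58% and 7.47% against 67.7% and 75.3%. Tead1, a DNA-binding partner of Yap1, was at 11.3% and 16.1% in epithelium and 70.7% and 79.0% in fibers, above the 23.7% and 29.3% of Yap1 itself in those libraries. The Hippo target Ajuba was at 24.9% and 21.9% against 63.7% and 61.7%.

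**Figure D5:**
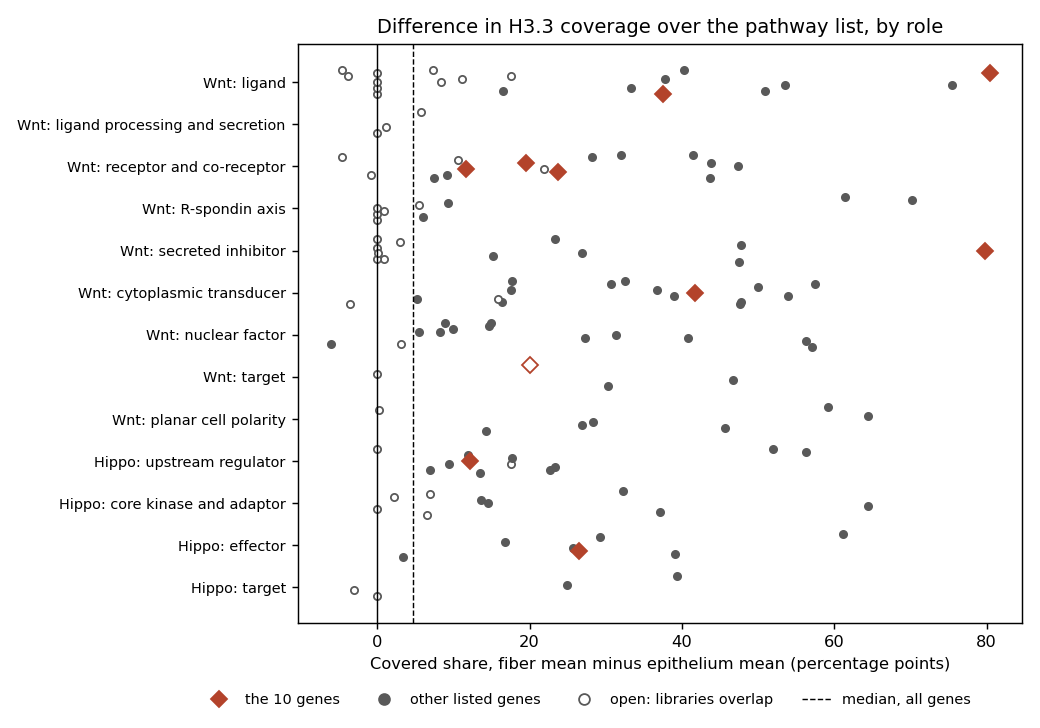
Mean covered share in fibers minus that in epithelium (percentage points, x axis) for the 10 genes (diamonds) and the 120 other genes of both pathways (circles), by role; open symbols mark genes whose libraries overlapped, and the dashed line the median of all genes at 4.72. Wnt7a and Sfrp1, at 80.4 and 79.7 points, lie to the right of every other gene, and Tle2, at -6.00, is the filled circle left of 0.

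Of the members and the list, the genes closest to Wnt7b in covered share over the 4 libraries were Dvl2, Gsk3a and Dkk3, at Euclidean distances of 9.01, 9.13 and 21.0 points. Dvl2 was at 50.2% and 65.4% in epithelium and 91.7% and 88.9% in fibers. Closest to Yap1 were Amotl1, Frmd6 and Vangl2, at 5.61, 6.96 and 7.36 points, of which Amotl1 and Vangl2 also had no island in epithelium. For Axin2 the nearest were Celsr3, Wnt9a and Ctnnbip1, at 17.7, 18.7 and 19.6 points. Wnt9a shared the overlap between compartments, at 22.8% and 48.1% in epithelium and 60.1% and 45.9% in fibers.

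The sequence under the fiber islands differed in makeup from the rest of the windows. Over the 10 genes, the 234 kb covered in both fiber libraries held 49.7% G and C, 15.0 CpGs per kb and 14.8% repeat-masked sequence, and the 340 kb covered in neither held 42.4%, 10.2 CpGs per kb and 26.5%. CTTTGA or CTTTGT occurred 1.54 times per kb in the first and 1.78 in the second, and GGAATG 0.723 and 0.462 times. The pooled values mix genes of unlike makeup, since Wnt7a, Wnt7b and Sfrp1 supply most of the covered sequence and Lrp6, Nf2, Fzd3 and Yap1 most of the uncovered. Within genes, 9 of which had both kinds of sequence, G and C were higher in the covered sequence at 8 and lower at Fzd6 (41.9% against 43.7%), and CpGs per kb were higher at 6 and lower at Fzd3, Fzd6 and Ctnnb1. The TCF/LEF cores went against the pooled values at 6 of the 9, among them Nf2 with 2.27 covered against 1.64 uncovered per kb and Fzd6 with 2.66 against 1.57, and were less frequent in covered sequence at Wnt7a, Wnt7b and Lrp6. GGAATG was more frequent in covered sequence at 5 and less frequent at 4 (Wnt7b, Fzd6, Axin2 and Nf2), so neither motif had the same direction in all genes.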

How the data were processed

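The data used were the H3.3 islands of 4 ChIP-seq libraries of newborn mouse lens, 2 of epithelium and 2 of fibers. Reads, single-end and 75 nt long, had been mapped by the authors to mm10 with BWA, and SICER2 was run on every library separately (window 200 bp, gap 600 bp, false discovery rate 0.01). The deposited lists give the start, end and count of reads of each island, not normalized. Duplicate removal and the use of the pooled input are not given in the sources used here. Islands held 1331369 and 1430373 reads in the epithelium libraries, against 5041885 and 5359085 in the fiber libraries. Since these sums are no depths, no interval was computed, and the number of libraries limits the precision. Bisulfite sequencing (12 libraries) and an input (1 pooled sample) were not analysed here. The labels give 150 lenses per sample, which differs from the number in the study's methods.

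For every protein-coding gene of GENCODE vM21 (21938), the base pairs under islands were summed over the gene and 5 kb on each side, as a length, a share of the window, a share per Mb of all islands of the library, and a percentile among genes. Coordinates count from 1. A gene was called higher in a compartment when both of its libraries exceeded both others, and each of the 10 genes had an exact two-sided permutation test (numpy 2.4.6, Python 3.11.15). The scripts that compute coverage and calls were tested on simulated islands with known answers. Replicate numbers are shared between compartments, but the correlation of replicate 1 minus replicate 2 between compartments was 0.00617 over 21938 genes, so the numbers were not taken as pairs. The genes, the pathway list and the markers were chosen with earlier results of these data known. Named from the list were, per role, the genes with the largest positive and the most negative difference among those whose libraries did not overlap, and for Wnt7b, Axin2 and Yap1 the 3 nearest genes by covered share. Promoters came from RefSeq (GRCm38.p6), of which 5 of the 10 genes had one, and were read against the genome with pysam 0.24.0 and samtools 1.23.1. Alternatives left out each library, used other windows, denser islands, equal numbers of islands, merged islands, a least overlap, a share of the library, percentiles, and windows without other protein-coding genes, the last chosen after seeing the data.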

Additional observations from a re-analysis of the deposited data

How the results depend on the processing

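Over 14 other settings, fibers were higher at Wnt7a in all 14, Sfrp1 in 13, Wnt7b, Lrp6 and Ctnnb1 in 12, Fzd6 and Yap1 in 11, Fzd3 in 10, Nf2 in 9 and Axin2 in 3. These counts overstate stability. Leaving out a library cannot change the call of a gene whose libraries do not overlap, so that call was fixed in advance for every gene but Axin2. Of 120 differences in kb under 12 of these settings, 92 moved by less than the spread between replicates, 23 by more, and 5 changed sign. The 92 include all 10 differences under a least overlap of 600 bp, which left every value unchanged. With the densest 10389 islands of each library, 4 of the 10 genes were higher in fibers and 4 had an island in all fiber libraries. The list gave 33 genes higher in fibers and 12 in epithelium, against 15.6% and 4.84% of all genes. The difference was -1.37 kb at Fzd3, -5.6 kb at Axin2 and -2.0 kb at Nf2. Counts of genes with an island in every library were not set against all genes under these settings. With equal numbers by read count, 6 of the 10 were higher in fibers and 6 had an island in all fiber libraries. The list gave 43 and 7, against 21.4% and 3.08% of all genes, and Axin2 was at -3.5 kb and Nf2 at -0.3 kb. As a share of the library, 4 genes were higher in fibers and 2 in epithelium, and the list gave 34 and 32, against 21.6% and 14.6% of all genes. On that scale Wnt7b, Ctnnb1 and Axin2 stood at -394, -142 and -113 bp per Mb. By percentile the counts were 4 and 1, and the list gave 33 and 43, against 22.1% and 48.1% of all genes. Axin2 and Nf2 stood at -6.90 and -11.9 points. With islands of at least the median density, 6 genes were higher in fibers (31.0% of all genes), 6 had one in all fiber libraries and 2 in all epithelium libraries. The list had 2 genes higher in epithelium by gene body alone and 0 with 10 kb on each side (0.775% and 0.647% of all genes). It had 2 without epithelium replicate 1 or fiber replicate 1 (2.73% and 1.45% of all genes). Without epithelium replicate 2 or fiber replicate 2 it had 5 (2.70% and 1.65% of all genes). Leaving out epithelium replicate 1 raised the genes with an island in every epithelium library used to 7. The cause of these changes was not tested, apart from the share of the library, where the ceiling of full coverage fixed the sign at Wnt7b and Ctnnb1. With the replicate numbers as a block, the differences are the same by construction (46.1 kb at Wnt7a), and the exact sign-flip p at Wnt7a was 0.5, the smallest that 2 pairs allow, so the block adds nothing on stability. Only called islands were used, so sequence without an island cannot be read as lacking H3.3. Having 2 libraries per compartment and an unknown depth limits every comparison.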
